A study of Mus musculus with 3 samples.

Results

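The DLX and HMX genes are homeobox genes, grouped here as dorsal genes of the otocyst, the epithelial vesicle that becomes the inner ear. Whether each member is active there was not measured in these data. The set described here holds the 6 DLX genes Dlx1 to Dlx6 and the 3 HMX genes Hmx1 to Hmx3, or 9 of 21887 protein-coding genes. Membership goes by gene name and uses no peak value, but the set was proposed with earlier results of these data known. The data are CUT&Tag peak lists for CHD7 and SOX2 from wild-type mouse otocysts at E10.5. A single dissociated pool of 34 otocysts supplied 3 samples, which received anti-CHD7, anti-SOX2 or no primary antibody. Both lists therefore come from the same pool of cells, and the strain is not given in the labels. The sample without primary antibody is not analysed here. With 1 library per antibody there is no replicate error and no test, and every value describes these libraries. Within 50 kb of the members lay 20 of the 33035 CHD7 peaks and 65 of the 155548 SOX2 peaks, counting each peak once over 5 loci of 592 kb in all.

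CHD7 is an ATP-dependent chromatin remodeler, and its loss disturbs the semicircular canals. SOX2 is an HMG-box transcription factor known in the ear for the sensory regions. DLX proteins are homeodomain factors whose genes lie in pairs, with the members of a pair transcribed towards each other and regulatory elements in the gap between them. Dlx5 and Dlx6 are needed for the semicircular canals, and Hmx2 and Hmx3, which also neighbour each other, for the vestibular part of the ear. Dlx1 and Dlx2 are best known from forebrain interneurons and the branchial arches, Dlx3 and Dlx4 from ectodermal tissues and the skeleton, and Hmx1 from the outer ear and sensory ganglia. In what follows, CHD7 or SOX2 at a position means a peak of that list there, not proof that the protein binds.

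RefSeq (GRCm38.p6, the build also called mm10) gave the stretch before the transcription start for 4 of the genes with a peak there and for Hmx2 without one. Dlx3, Dlx4, Dlx5 and Dlx6 had no promoter sequence available, so the promoter counts and the motif search leave them out. The 250 bases upstream of each start are shown because they place the peak borders on sequence, with bases inside a SOX2 peak in capitals.
Dlx1, chr2:71529195-71529444, plus strand: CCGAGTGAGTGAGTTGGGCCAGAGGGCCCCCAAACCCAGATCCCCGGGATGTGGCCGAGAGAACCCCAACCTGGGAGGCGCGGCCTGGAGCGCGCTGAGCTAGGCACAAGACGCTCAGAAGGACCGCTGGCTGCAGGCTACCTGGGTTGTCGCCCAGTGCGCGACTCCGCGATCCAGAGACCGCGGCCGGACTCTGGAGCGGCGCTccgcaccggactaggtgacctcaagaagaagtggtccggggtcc
Dlx2, chr2:71546755-71547004, minus strand: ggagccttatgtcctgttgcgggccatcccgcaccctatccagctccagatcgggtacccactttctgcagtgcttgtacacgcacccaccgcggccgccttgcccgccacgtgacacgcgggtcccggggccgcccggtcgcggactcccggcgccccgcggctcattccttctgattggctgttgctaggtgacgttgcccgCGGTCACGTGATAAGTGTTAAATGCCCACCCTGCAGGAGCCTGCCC
Hmx1, chr5:35388611-35388860, plus strand: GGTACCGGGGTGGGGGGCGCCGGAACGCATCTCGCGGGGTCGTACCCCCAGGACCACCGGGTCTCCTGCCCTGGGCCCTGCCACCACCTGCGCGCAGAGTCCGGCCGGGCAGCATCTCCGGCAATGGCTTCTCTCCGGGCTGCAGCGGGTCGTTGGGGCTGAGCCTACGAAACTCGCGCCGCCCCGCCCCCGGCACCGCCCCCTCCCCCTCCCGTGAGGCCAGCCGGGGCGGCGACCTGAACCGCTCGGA
Hmx3, chr7:131542713-131542962, plus strand: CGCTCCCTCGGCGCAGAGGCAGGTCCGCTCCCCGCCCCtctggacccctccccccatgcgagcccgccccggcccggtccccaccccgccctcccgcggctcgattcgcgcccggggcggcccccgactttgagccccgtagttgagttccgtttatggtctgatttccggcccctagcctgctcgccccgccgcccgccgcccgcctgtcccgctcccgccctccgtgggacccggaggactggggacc
Hmx2, inner start, chr7:131554043-131554292, plus strand: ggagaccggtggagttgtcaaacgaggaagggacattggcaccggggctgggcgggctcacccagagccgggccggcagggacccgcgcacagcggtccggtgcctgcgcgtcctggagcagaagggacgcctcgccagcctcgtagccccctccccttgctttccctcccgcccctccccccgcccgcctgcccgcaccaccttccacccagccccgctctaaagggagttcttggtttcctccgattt
CHD7 peaks covered all 250 bases of the Dlx1 and Dlx2 stretches and none of the other stretches. SOX2 peaks covered 206 bases at Dlx1, 46 at Dlx2, 250 at Hmx1 and 38 at Hmx3. Counted as promoters, with 50 bases after the start added, CHD7 was at 2 of the 6 promoters of these 5 genes (27.3% of all promoters). SOX2 was at 4 (43.3%) and both at 2 (23.6%). At Hmx2 neither protein lay on the inner start shown or on a start 5536 bases before it, at the outer border of the gene. The stretches shown were rich in G and C, from 66.4% at Dlx2 to 76.8% at Hmx3, against a median of 55.6% over 21263 promoters of protein-coding genes. The stretch before the outer Hmx2 start had 49.6% and 1 CpG, against 21 to 31 CpGs in the others. In the same 21263 promoters the median was 62.8% where both proteins had a peak and 49.6% where neither had.

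The SOX core ACAANG, the homeodomain core TAATT and the HMX core CAAGTG were searched on both strands of these 250 bases. None had a match in the 6 stretches of Dlx1, Dlx2, Hmx1, Hmx2 and Hmx3. Over all 21263 promoters of the same length 33.7% held the SOX core, 22.2% the homeodomain core and 11.2% the HMX core. These promoters were not matched for G and C, in which the stretches shown were rich. The lack of a match therefore cannot be read as a depletion of sites. Only these letters in this window were tested, and the sequence under the other peaks was not used here.

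CHD7 lay at the ends of 6 of the 9 genes and SOX2 at the ends of 6, where an end is the outer border of a gene with 1 kb on each side. Over all protein-coding genes 30.8% had CHD7 at an end, 59.7% had SOX2 and 28.3% had both. Dlx1, Dlx2, Dlx5, Dlx6 and Hmx3 had both. Dlx3 had CHD7 alone, a state found at 2.51% of all genes, and Hmx1 had SOX2 alone, found at 31.4%. Dlx4 and Hmx2 had neither, as did 37.8% of all genes. The SOX2 count of 6 of 9 is thus near its background, and the CHD7 count lies above its own, without a test. Peaks were ranked within their list by total signal, the authors' coverage summed over a peak. The stronger 50% of each list left CHD7 at 3 members (Dlx1, Dlx2 and Dlx5, background 19.2%) and SOX2 at 6 (background 47.7%). Inside the gene borders CHD7 was in 5 members (43.4% of all genes) and SOX2 in all but Dlx3 (75.1%).

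**Figure D1:**
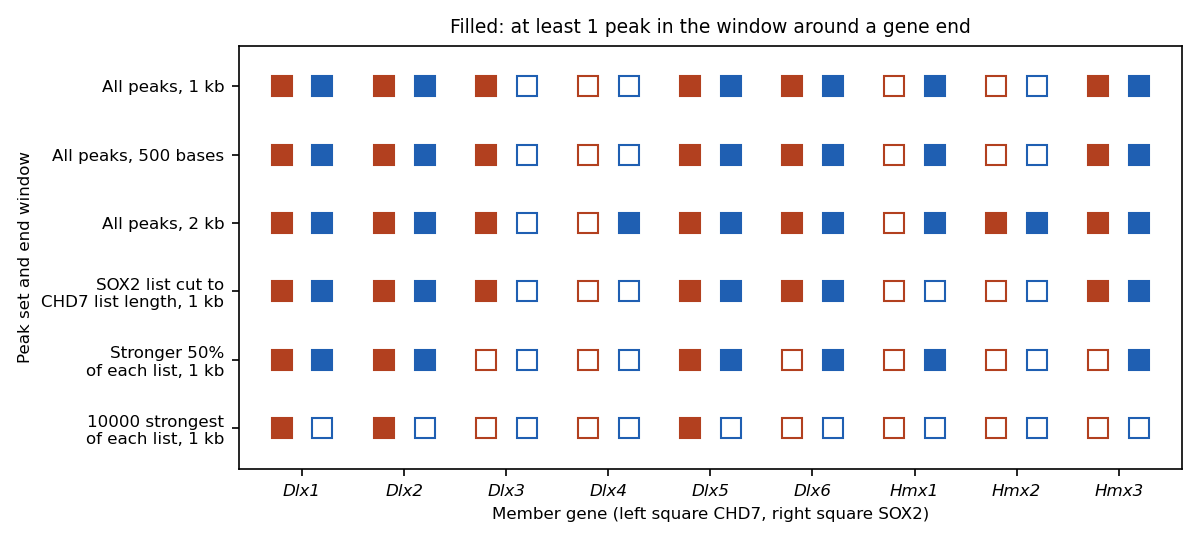
Presence of a peak within the stated window of a gene end for the 9 members (horizontal axis) under 6 peak sets and windows (vertical axis), with CHD7 as the left and SOX2 as the right square and filled squares for presence. CHD7 stays at Dlx1, Dlx2 and Dlx5 in all 6 rows shown, while no SOX2 square is filled with the 10000 strongest peaks of each list. That cut is stricter for the SOX2 list (155548 peaks) than for the CHD7 list (33035). With the stronger 50% of each list SOX2 is at 6 members and CHD7 at 3. The row with the SOX2 list cut to the CHD7 list length leaves CHD7 unchanged, so its CHD7 squares repeat the top row.

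Around the genes the members also differed. In the gene with 50 kb on each side CHD7 was present at 8 of 9 members (82.9% of all genes) and SOX2 at 9 (98.7%). Dlx1 and Dlx2 each had 7 CHD7 peaks there, a number that 4.66% of all genes reach. Dlx3 had 5, Dlx4, Dlx5, Dlx6 and Hmx3 had 4 each, Hmx2 had 3 and Hmx1 had 0. The median over the 9 members was 4 CHD7 peaks and over all genes 2. For SOX2 the order ran from Dlx1 with 16 and Hmx1 with 15 through Dlx2 with 14, Dlx4 and Dlx5 with 10 and Dlx3, Dlx6 and Hmx2 with 9 to Hmx3 with 8. The median was 10 SOX2 peaks both over the members and over all genes. Members of a pair share most of their locus, so their counts are not independent, and members 1 or 2 peaks apart in this order cannot be ranked from 1 library. Per 100 kb of locus, which removes gene length, Dlx2 had 6.77 CHD7 peaks and Dlx1 6.61, against a median of 1.54 over all genes. By this measure the SOX2 median was 9.45 over the members and 7.41 over all genes. The members ran from 7.66 SOX2 peaks per 100 kb at Hmx3 to 15.1 at Dlx1.

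**Figure D2:**
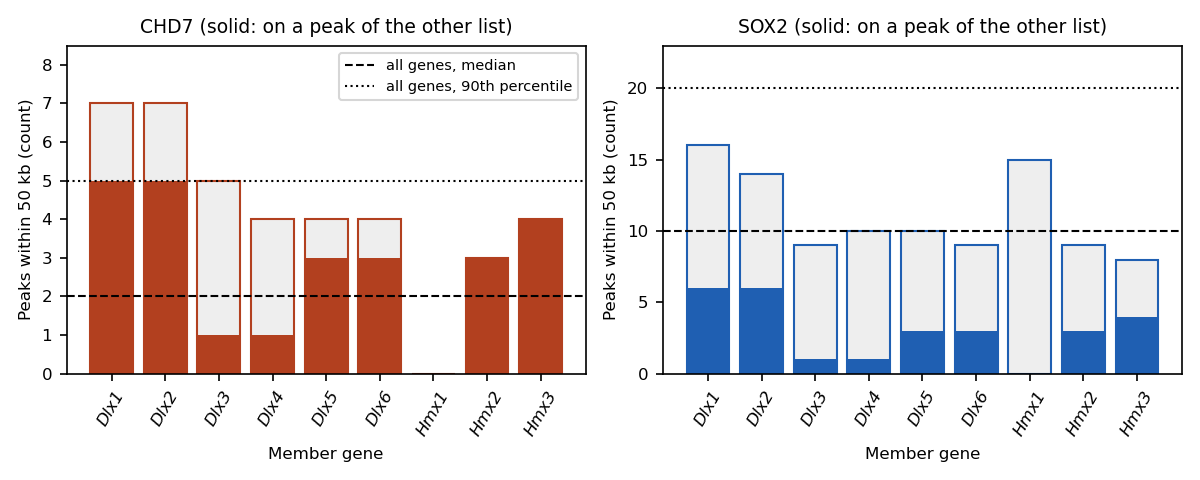
Number of CHD7 (left) and SOX2 (right) peaks in each member gene with 50 kb on each side, the solid part being peaks that lie on a peak of the other list. Dashed and dotted lines are the median and 90th percentile over all protein-coding genes (2 and 5 for CHD7, 10 and 20 for SOX2). Hmx1 has no CHD7 bar and 15 SOX2 peaks, none of them solid.

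Of the 20 CHD7 peaks 13 shared at least 1 base with a SOX2 peak, or 65.0% (exact 95% binomial interval 40.8% to 84.6%, counting error only), and over the whole CHD7 list 65.3% did. Of the 65 SOX2 peaks 14 lay on a CHD7 peak, or 21.5% (12.3% to 33.5%), against 14.7% of the whole list. Both list-wide shares lie inside the intervals. The intervals treat peaks as independent, which peaks of the same locus are not, so this is a description and no test. By locus the CHD7 share ran from 1 of 5 at Dlx3 and Dlx4 through 5 of 7 at Dlx1 and Dlx2 and 3 of 4 at Dlx5 and Dlx6 to 4 of 4 at Hmx2 and Hmx3. At 5 of the 20 CHD7 peaks the region of highest signal itself met that of a SOX2 peak (shared at least 1 base with it), which 19.8% of the whole list did, and 4 of those 5 lay around Dlx1 and Dlx2. Taken over the shared peaks alone, this was 5 of 13 (30.3% of the whole list's shared CHD7 peaks). On the SOX2 side it was 5 of 65 (4.21%), or 5 of the 14 shared ones (28.6%). At member ends lay 10 of the CHD7 peaks, 7 of them shared, and 3 more lay in the gaps away from those ends.

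The Dlx5 and Dlx6 locus carried CHD7 and SOX2 together at an outer end of each gene, and different strong peaks of each protein between them. Dlx6 (chromosome 6, 6863334 to 6867970) had a CHD7 peak at 6863251 to 6864200 over its lower border, with a total signal of 487, in the weak part of its list (82.8% of CHD7 peaks had as much or more). The SOX2 peak there, at 6863301 to 6864150, lay wholly inside the CHD7 peak and was strong, with a total signal of 2229 in the top 8.51% of the SOX2 list. Just outside the gene a second SOX2 peak lay at 6862401 to 6863150 (total signal 1085).

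At Dlx5 (chromosome 6, 6877801 to 6882068) both ends had CHD7. The peak over the higher border, at 6881301 to 6882650 (total signal 792, top 34.8%), contained a SOX2 peak at 6881401 to 6882350 with a total signal of 2346, in the top 7.65%. Near the lower border a CHD7 peak at 6878101 to 6879400 (1047, top 20.1%) shared 500 bases with a SOX2 peak at 6878901 to 6879450 (1085, top 41.5%). In none of the 3 shared places at Dlx5 and Dlx6 did the regions of highest signal share a base, although at Dlx6 they lay directly side by side.

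The gap between Dlx6 and Dlx5, 9830 bases long, held 1 peak of each protein, and these did not touch. SOX2 lay at 6870101 to 6871500, with a total signal of 2610 (top 6.03%), the strongest SOX2 peak of the locus. CHD7 lay 2350 bases further on, at 6873851 to 6875500, with a total signal of 1011 (top 21.5%). All 4 CHD7 peaks of the locus lay at, inside or between the genes. The remaining SOX2 peaks of the locus included one 32433 bases above Dlx5 with a total signal of 1906, in the top 11.6%.

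Dlx1 and Dlx2 had the most CHD7 peaks of the set, with 1 over the start of each gene and others between them. At Dlx1 (chromosome 2, 71528113 to 71533981) the CHD7 peak at 71528751 to 71531300 was 2550 bases wide, with a total signal of 2059 (top 5.66%). It took in the RefSeq start at 71529445 and shared 650 bases with a SOX2 peak at 71528501 to 71529400 (2346, top 7.65%), and their regions of highest signal met. A further CHD7 peak inside Dlx1, at 71531851 to 71533250 (938, top 24.9%), had no SOX2 on it. At the higher border a weaker CHD7 peak at 71533951 to 71534900 (533) touched 2 SOX2 peaks of 1056 each.

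At Dlx2 (chromosome 2, 71543408 to 71546754) the start is the higher border, and there a CHD7 peak at 71545601 to 71547250 (1252, top 14.5%) contained a SOX2 peak at 71545851 to 71546800 (1994, top 10.7%). The strongest CHD7 peak of all 5 loci lay at the other end of Dlx2. It ran from 71542401 to 71543400, stopping 8 bases before the gene, with a total signal of 2286 (top 4.6%), and its highest signal of 9.84 was in the top 1.68% of the list. No SOX2 peak touched it, although one of 1173 ended 150 bases away, at 71542250.

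The Dlx1 to Dlx2 gap of 9426 bases held 3 CHD7 and 5 SOX2 peaks, counting those that reach in from an end. Of 9554 gaps of 1 to 25 kb between neighbouring protein-coding genes 0.89% held as many CHD7 peaks or more and 1.67% as many SOX2 peaks or more. These gaps were not matched for length. In its middle a CHD7 peak at 71538451 to 71539050 and a SOX2 peak at 71538751 to 71539350 had the same 50 bases of highest signal, 71538851 to 71538900, though both were weak, at 455 and 762. The same was seen 17647 bases above Dlx2, outside any gene. There a narrow CHD7 peak at 71564401 to 71564650 (797, highest signal in the top 9.37%) lay wholly within a SOX2 peak at 71564301 to 71564850 (1378, highest signal in the top 12.7%), with their highest signal at 71564501 to 71564550 in both lists. The SOX2 peak of highest total signal in this locus lay far from both genes, 41263 bases below Dlx1 inside Metap1d, a methionine aminopeptidase gene, at 71486101 to 71486850 (2404, top 7.24%), with no CHD7 on it.

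**Figure D3:**
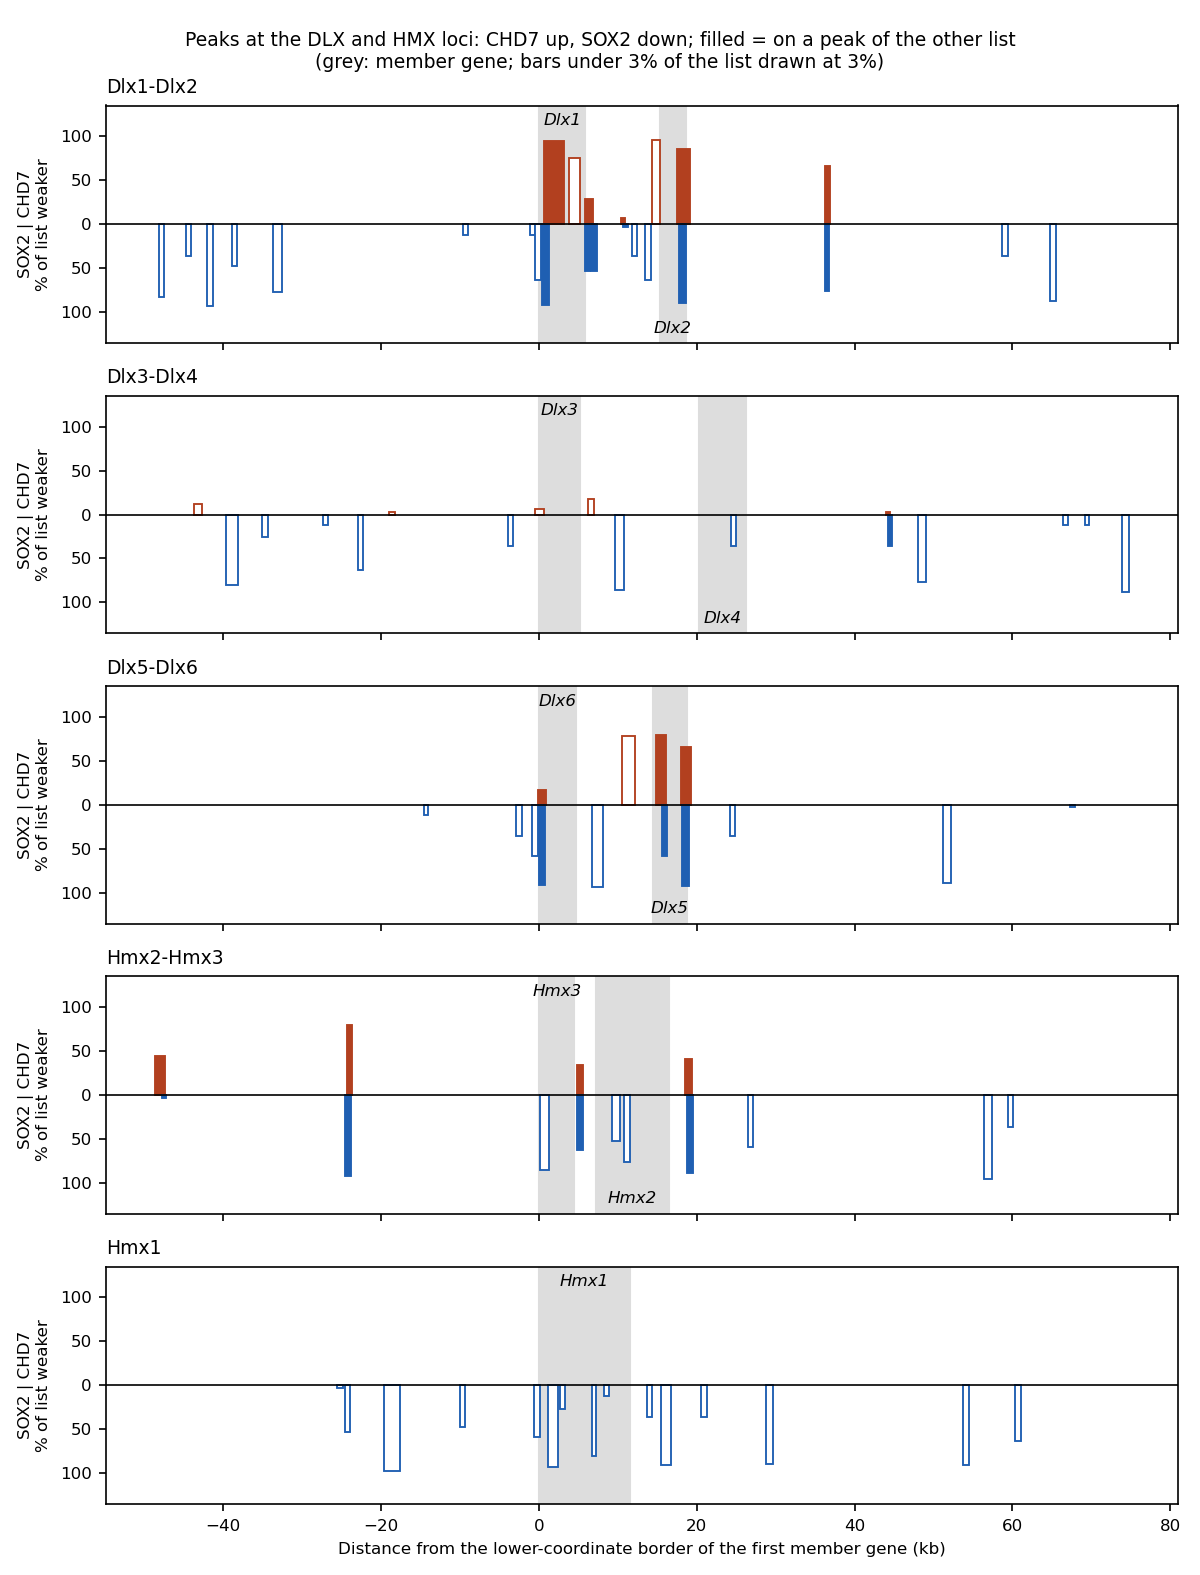
CHD7 peaks (red, upward) and SOX2 peaks (blue, downward) at the 5 loci, by distance in kb from the lower border of the first member gene. Bar height is the percentage of the list with lower total signal, filled bars lie on a peak of the other list, the narrowest and lowest bars are enlarged to stay visible, and grey marks the members. CHD7 bars gather over Dlx1, Dlx2 and Dlx5, are low at Dlx3 and Dlx4, and are missing at Hmx1.

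The Dlx3 and Dlx4 locus had CHD7 only as peaks of low total signal. All 5 had a total signal of 433 to 487, where the lowest in the whole list is 433 and the median 651. By highest signal 3 of them stood near the middle of the list, at 47.2%, 50.8% and 54.2% from the top. Dlx3 (chromosome 11, 95120117 to 95125296) had one over its lower border, at 95119651 to 95120800 (451), with no SOX2 peak within 2850 bases of it and no SOX2 peak inside the gene. Dlx4 (chromosome 11, 95140447 to 95146294) had no CHD7 at an end or inside, and a SOX2 peak inside, at 95144401 to 95145050 (938, in the weaker 50% of its list).

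Between Dlx3 and Dlx4, a gap of 15150 bases, CHD7 lay at 95126351 to 95127100 (487) and SOX2 at 95129751 to 95130900 (1759, top 14.1%), with 2650 bases between them. The single shared place of this locus lay 17757 bases above Dlx4, where CHD7 at 95164051 to 95164650 (433) met SOX2 at 95164301 to 95164650 (938). The strongest SOX2 peak of the locus lay 47707 bases above Dlx4, at 95194001 to 95194900 (1877, top 12.3%), without CHD7. The stronger 50% of the CHD7 list by total signal left none of the 5 CHD7 peaks.

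The 4 paired gaps, Dlx1 to Dlx2, Dlx3 to Dlx4, Dlx5 to Dlx6 and Hmx3 to Hmx2, all held both proteins. Among all gaps of 1 to 25 kb, not matched for length, 26.6% held CHD7, 60.9% SOX2 and 24.0% both. At Dlx3 to Dlx4 and at Dlx5 to Dlx6 the CHD7 and SOX2 peaks of the gap stood apart, and in the other gaps some overlapped. With the stronger 50% of each list 2 gaps kept both (background 14.0%).

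At the Hmx2 and Hmx3 locus every CHD7 peak lay on SOX2, but none lay on a RefSeq start of either gene. Hmx3 (chromosome 7, 131541532 to 131546027) had a SOX2 peak at 131541701 to 131542750 (1701, top 15.1%), which stopped short of its start site at 131542963. At its other end a CHD7 peak at 131546401 to 131547100 (560, with 66.0% of the list as strong or stronger) lay wholly within a SOX2 peak at 131546301 to 131547150 (1144, top 37.5%). These peaks lie in the gap of 2729 bases to Hmx2. Hmx2 (chromosome 7, 131548757 to 131558014) had 2 SOX2 peaks inside, at 131550801 to 131551750 (1056) and at 131552351 to 131553100 (1407, top 23.4%), and no CHD7.

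The strongest CHD7 peak of this locus lay 23782 bases below Hmx3, between genes. It ran from 131517201 to 131517750 with a total signal of 1029 (top 20.8%), wholly inside a SOX2 peak at 131516951 to 131517750 (2258, top 8.17%). Another shared place was not at an HMX gene but at the lower border of Bub3, a spindle checkpoint gene, where CHD7 at 131560051 to 131560900 (601), 2037 bases above Hmx2, and SOX2 at 131560251 to 131561050 (1906, top 11.6%) shared 650 bases. The strongest SOX2 peak, at 131597951 to 131598900 (3050, top 4.39%), lay 39937 bases above Hmx2 and had no CHD7 on it.

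Hmx1 (chromosome 5, 35388780 to 35400285) stood apart from the other 8 genes in having SOX2 without CHD7 throughout its locus. In the gene with 50 kb on each side, 112 kb, there were 15 SOX2 peaks and no CHD7 peak. No CHD7 within that distance was found at 17.1% of all genes. Of the 5941 genes with at least 15 SOX2 peaks there, 3.28% lacked CHD7, which is 0.891% of all genes. The cutoff of 15 is the count of Hmx1 itself, so these shares describe where Hmx1 stands and test nothing. The nearest CHD7 peak was 72.3 kb below the gene, at 35315701 to 35316450, with a total signal of 483.

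SOX2 covered the Hmx1 start with a peak at 35388101 to 35388950 (1114, top 40.7%), and 4 more lay further inside. The strongest of those was at 35389951 to 35391150, with a total signal of 2404 (top 7.24%). The strongest in the locus lay 17630 bases below the gene, at 35369151 to 35371150. It was 2000 bases wide with a total signal of 3988 (top 2.50%), the highest SOX2 total of all 5 loci. With 100 kb on each side there were 2 CHD7 and 25 SOX2 peaks. The SOX2 list is the longer one, and its count within 50 kb of Hmx1 depended on that length. Cut to the length of the CHD7 list it left 6 SOX2 peaks there. The 10000 strongest of each list left 1 SOX2 peak.

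**Figure D4:**
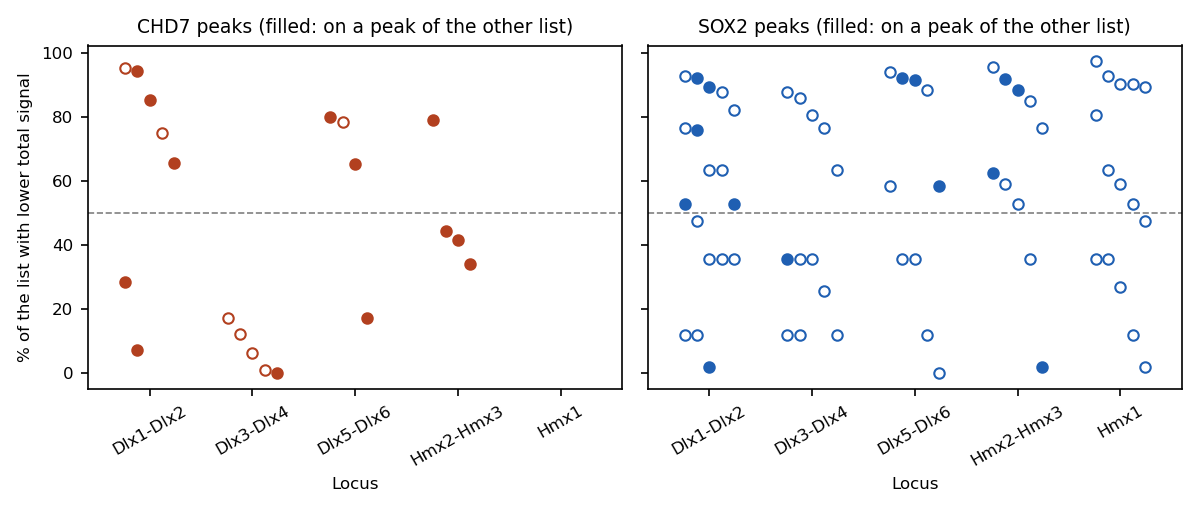
Strength of each peak at the 5 loci, as the percentage of its own list with lower total signal (vertical axis), for CHD7 (left) and SOX2 (right). Each point is a peak, filled where it lies on a peak of the other list, and the dashed line marks 50%. CHD7 peaks of Dlx3 and Dlx4 all sit below 20%, and Hmx1 has SOX2 points from near 0 to above 95% and no CHD7 point.

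The 10% strongest of each list included 2 of the 20 CHD7 peaks, both at Dlx1 and Dlx2, and 11 of the 65 SOX2 peaks, of which 4 were at Hmx1, 3 at Dlx5 and Dlx6 and 2 each at Dlx1 and Dlx2 and at Hmx2 and Hmx3. Peaks at, inside or between members had a median place in the top 34.8% of the CHD7 list (13 peaks) and in the top 37.5% of the SOX2 list (25 peaks). Those elsewhere within 50 kb stood at 58.5% (7 peaks) and 49.8% (40 peaks). The same contrast was not computed over all genes, so it cannot be called particular to these loci. Of the CHD7 peaks at, inside or between members, those at Dlx3, Dlx4 and Hmx3 were all in the weaker 50% of the list. Those at Dlx1, Dlx2, Dlx5 and Dlx6 lay on both sides of that mark.

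Other genes of the dorsal otocyst and the canals, and genes of its ventral part, were counted in the same way. CHD7 was at an end of 13 of 20 dorsal genes and 8 of 11 ventral genes, SOX2 at 18 and 9, and both at 12 and 7. Over all protein-coding genes the shares were 30.8% for CHD7, 59.7% for SOX2 and 28.3% for both. A CHD7 count above its background was thus not particular to the DLX and HMX genes. The lists overlap, and Pax2 is in both. The DLX and HMX genes had both at 5 of 9, and no test of a difference from these lists was run. The dorsal genes ranked highest with both were the transcription factors Gbx2, Tbx2, Tbx3, Gli3 and Msx1 and the hyaluronan synthase gene Has2. Total signal at the ends of Tbx2 came to 3411 in the CHD7 list and 7008 in the SOX2 list, and at Tbx3 to 756 and 1877. The ventral ones included Neurog1, Isl1, Jag1, Sox2 and Lfng. Lfng, a modifier of Notch receptors, had 861 and 9442, and Sox2 itself 1471 and 4076. Pax2 had neither protein at an end. The median number of peaks within 50 kb was 3.5 for CHD7 and 11.5 for SOX2 in the dorsal list and 5 and 13 in the ventral one. Over all protein-coding genes it was 2 and 10. Like Hmx1, Fgf10, a ligand needed for the canals, had no CHD7 peak within 50 kb, but it had 4 SOX2 peaks against the 15 of Hmx1.

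Peaks do not measure expression, so the otocyst label could not be checked by its markers. For genes of other cells that a dissection could carry, both proteins were at an end of 1 of 5 hindbrain, 2 of 5 neural crest, 4 of 5 periotic mesenchyme, 1 of 5 branchial arch and 1 of 5 blood genes, against 28.3% of all genes. In the same order CHD7 was at an end of 2, 2, 4, 3 and 1 genes (30.8% of all genes). SOX2 was at an end of 3, 3, 4, 3 and 2 (59.7%). The part of such cells in the peaks at the DLX genes, which the branchial arches also use, was not tested.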

How the data were processed

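CUT&Tag libraries were sequenced from cells incubated with anti-CHD7 or anti-SOX2, with 1 library each. The submitters' processing notes name Bowtie2, deepTools, SEACR and the build mm10, with versions, settings and use of the control not given in the sources used here. Peak lists, 1 per library, give the authors' coverage signal of each peak, summed over it and at its highest point, as deposited. Its scaling is not given, so it was compared only within a list, with totals rounded to 1 decimal for ranks. Read depth is unknown, and intervals cover counting error only.

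Gene borders and start sites came from RefSeq (GRCm38.p6); coordinates count from 1. Peaks sharing at least 1 base with a window were counted, each once per locus. A place was called shared at 1 base of overlap. The gene table does not separate exons from introns. All members were named. The rule for what is described took the strongest CHD7 and SOX2 peak of each locus, shared peaks at, inside or between members, and the 3 strongest shared places elsewhere. In the dorsal and ventral lists, at most 6 genes with CHD7 and SOX2 (ranked by end signal) and at most 3 without either were named, except 1 that is not reported here. Other peaks described fall outside it and were chosen after their values were seen. Members and lists were chosen with earlier results of these data known. The planned motif search was limited to promoters. Alternatives are given in the closing section. Counting was tested on simulated data. Software was Python 3.11.15 with pandas 2.3.3, numpy 2.4.6, matplotlib 3.10.9 and scipy 1.17.1.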

Additional observations from a re-analysis of the deposited data

How the results depend on the processing

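No paired analysis was possible because there is 1 library per antibody. Counts at gene ends stayed within 1.5 times with windows of 500 bases or 2 kb and with the middle of the highest signal placed in the window, an alternative chosen after seeing the data; with 2 kb Hmx2 gained both proteins and Dlx4 gained SOX2, while over all genes CHD7 rose to 34.1%, SOX2 to 68.6% and their joint presence to 31.7%. With 20 kb around the genes there were 40 SOX2 peaks, and with 100 kb 32 CHD7 and 112 SOX2 peaks. With the stronger 50% of each list CHD7 was at 3 member ends (background 19.2%), both proteins at 3 (17.7%), CHD7 in 2 gaps (15.8%), both in 2 (14.0%), and the loci held 9 CHD7 and 40 SOX2 peaks. Keeping the 10000 strongest of each list is a stricter cut for the longer SOX2 list. With it CHD7 was at 3 ends (background 13.3%), SOX2 at 0 (16.9%) and both at 0 (9.06%). In the gaps CHD7 was then in 2 (10.7%), SOX2 in 1 (11.9%) and both in 1 (6.63%); the loci held 7 CHD7 and 3 SOX2 peaks, of which 0% overlapped in either direction, against 46.4% of CHD7 and 46.9% of SOX2 peaks in those lists. Requiring the regions of highest signal to meet gave 25% of CHD7 (19.8% of the list) and 7.69% of SOX2 peaks (4.21%) shared. With only as many of the strongest SOX2 peaks as there are CHD7 peaks, chosen after seeing the data, SOX2 was in 2 gaps (27.9%) and both in 2 (17.3%), 22 SOX2 peaks were left in the loci and 30% of CHD7 peaks were shared (40.4% of the list); Hmx1 lost its end peak. Of 48 recomputed values the 23 not printed here stayed close to the main ones, within 1.5 times for counts and within the interval for shares. Leaving out a replicate was not possible, and read depth is unknown, so absence of a peak means only that none was in the list.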

Other observations

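Noncoding transcripts cross several members. Dlx1as, antisense to Dlx1 (chromosome 2, 71530638 to 71537891), had 1 CHD7 peak at each end and 1 SOX2 peak at its higher end. Dlx6os1, a long noncoding RNA that overlaps Dlx6 (chromosome 6, 6820543 to 6871627), had SOX2 and no CHD7 at its higher border, and neither protein lay in the promoter window of its RefSeq starts. The strong SOX2 peak between Dlx6 and Dlx5 lies inside this gene. Dlx4os (chromosome 11, 95145053 to 95159047), which overlaps Dlx4, had SOX2 in its promoter window, in the peak that lies inside Dlx4 and stops just before the start. At Hmx1 the SOX2 peak over the start also lay over the start of E130018O15Rik, a long noncoding RNA on the opposite strand (chromosome 5, 35379152 to 35388476). Which transcript such a peak belongs to cannot be told apart from these lists.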
